A study of Mus musculus with 10 samples.

Results

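The Cyp2 genes encode the largest family of mouse cytochrome P450 enzymes. The family was taken here as the protein-coding genes of GENCODE vM21 whose symbol is Cyp2 followed by 1 subfamily letter and a number. Where a gene had several transcripts in the authors' deposited table, the one of highest mean level stood for it. Of 48 such genes in the annotation, 42 were analysed here, among 18296 protein-coding genes and 27876 genes in all. The kidneys came from wild-type mice on day 14. The quinolinic acid group received quinolinic acid, a tryptophan metabolite made in the kynurenine pathway, at 0.5 g/L in drinking water, and the other group received vehicle. Each group had 5 mice, picked by the study as representative with no rule stated, and 1 batch label covered all 10 libraries. The question was what quinolinic acid given from outside does to kidney RNA. The labels used here give neither the age or sex of the mice nor whether kidney injury had been induced.

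P450 enzymes hold a heme group and use electrons from the reductase Por to insert an oxygen atom into fats, steroids and foreign compounds. Members of the Cyp2 family make epoxides and hydroxylated products from arachidonic acid, oxidise drugs, solvents and steroids, and carry out the first step of vitamin D activation. In rodents many members are liver enzymes, while the kidney carries its own set, mostly in the proximal tubule.

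The deposited table is a finished comparison. For each transcript it lists a log2 fold change, the mean level over the libraries as log2 CPM (read counts scaled to a common library total), and the p and adjusted p of the authors' edgeR likelihood-ratio test. Adjustment was by the Benjamini-Hochberg method over all 85107 transcripts. No value of a single library was analysed here, and so the spread between mice, the overlap of the groups and the depth per library are unknown. Errors are approximate standard errors (SE) and 95% intervals, worked out for each transcript from its fold change and its likelihood ratio. Since the header does not name the numerator, fold changes keep their deposited sign, which says nothing of more or less RNA after quinolinic acid. In a whole kidney, fewer cells of a type and less RNA per cell cannot be told apart. All 14 genes of a proximal tubule list reached 1 CPM, with a median of 436 CPM.

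Many members are recent duplicates, and the sequences of the closest pairs show how few bases separate them. Cyp2a4, a testosterone hydroxylase, and Cyp2a5, a coumarin hydroxylase, had coding sequences 98.4% identical, with 23 substitutions over 1482 bases and no gap. The 120-base stretch with the most substitutions, bases 550 to 669 of each coding sequence, lay across exons 4 and 5 (mm10 coordinates, plus strand, with the intron between them included: chr7:26308984-26310720 for Cyp2a4 and chr7:26837147-26838882 for Cyp2a5). It is shown because reads within the coding sequence can be assigned to 1 of the pair only at such bases. Capitals mark the 6 positions that differ.
Cyp2a4: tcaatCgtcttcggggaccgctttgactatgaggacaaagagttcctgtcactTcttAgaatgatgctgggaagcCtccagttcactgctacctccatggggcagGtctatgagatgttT
Cyp2a5: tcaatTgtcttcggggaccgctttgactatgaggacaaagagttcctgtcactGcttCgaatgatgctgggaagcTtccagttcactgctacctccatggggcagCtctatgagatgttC
Counted from 1 at the start codon and with the Cyp2a4 base first, one of these substitutions is C625T, in a codon whose exchange is known to shift the enzyme between steroid and coumarin hydroxylation.

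Close copies also exist among 3 liver enzymes of the Cyp2c subfamily that oxidise arachidonic acid, Cyp2c37, Cyp2c50 and Cyp2c54, whose fold changes are described further on. Their coding sequences of 1470 bases were 95.1% to 96.1% identical in pairs. Bases 809 to 928, the 120-base stretch with the most variable positions, lay across exons 5 and 6 (mm10, plus strand for Cyp2c37 at chr19:39995878-40000526 and Cyp2c50 at chr19:40092370-40096825, minus strand for Cyp2c54 at chr19:40047537-40070178). Capitals mark the 20 positions at which the 3 sequences are not all alike.
Cyp2c37: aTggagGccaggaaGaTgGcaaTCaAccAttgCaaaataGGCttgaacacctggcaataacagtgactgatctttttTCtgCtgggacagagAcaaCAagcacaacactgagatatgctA
Cyp2c50: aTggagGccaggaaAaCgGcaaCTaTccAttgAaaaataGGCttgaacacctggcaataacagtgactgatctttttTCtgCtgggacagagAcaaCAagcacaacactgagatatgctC
Cyp2c54: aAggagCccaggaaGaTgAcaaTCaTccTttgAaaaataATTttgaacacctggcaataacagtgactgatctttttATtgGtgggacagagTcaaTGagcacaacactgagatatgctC

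Over all 861 pairs of members, 19 had coding sequences more than 90% identical, and all 19 lay within a subfamily. The median identity was 78.5% within subfamilies and 59.5% between them. Of the 50-base stretches of a transcript, 62.0% of those of Cyp2a4 and 59.2% of those of Cyp2a5 occurred in no transcript of another gene in GENCODE vM21. This share was 71.0% for Cyp2d9, and it was lowest, from 27.9% to 47.2%, for Cyp2c40, Cyp2c67 and Cyp2c69. Cyp2j5 (99.8%), Cyp2e1 (95.2%) and Cyp2c23 (100%) had almost only stretches of their own. With stretches of 100 bases, 34 of the 42 members were over 90% unique, against 21 with 50 bases. The read length and the handling of reads that match several genes are not given in the sources used here, so values of the Cyp2a4 and Cyp2a5 pair and of the Cyp2c and Cyp2d groups with close copies are uncertain.

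**Figure D1:**
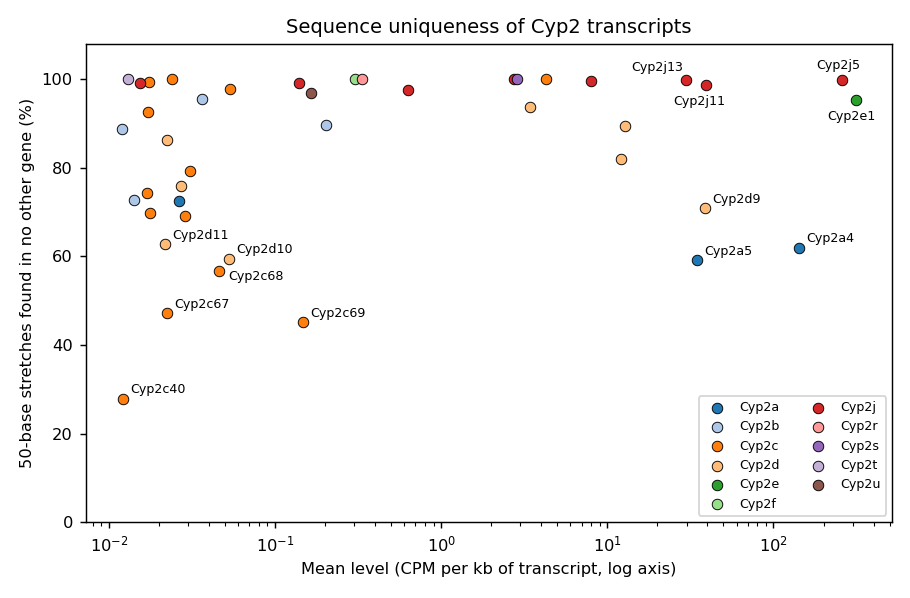
Share of 50-base transcript stretches found in no other gene (percent, vertical axis) against mean level (CPM per kb of transcript, log axis) for 42 Cyp2 genes, 1 point per gene, coloured by subfamily. Cyp2e1 and Cyp2j5 are abundant and above 95% unique, while Cyp2a4 and Cyp2a5 are abundant at 62.0% and 59.2%.

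The family divided into a few abundant kidney enzymes and many genes near the lower limit of the table. Levels between genes are compared as CPM per kilobase (kb) of transcript, computed from the authors' deposited table. The summed level of the 42 genes was 902 CPM per kb, of which Cyp2e1, Cyp2j5 and Cyp2a4 made up 78.9% and the 14 genes of at least 1 CPM made up 99.7%. The other 28 genes lay under 1 CPM and 21 of them under 0.1 CPM, where the lowest value listed for any transcript was 0.0201 CPM.

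Cyp2e1, which oxidises ethanol, acetone and other small molecules, stood highest at 313 CPM per kb (chromosome 7, 140763739 to 140774987, mm10). Cyp2j5, an arachidonic acid epoxygenase of the mouse proximal tubule, followed at 257 CPM per kb (chromosome 4, 96628773 to 96664154), and Cyp2a4 at 142 CPM per kb (chromosome 7, 26307169 to 26315088). The next group held Cyp2j11 at 39.3, Cyp2d9, a testosterone hydroxylase known from male mouse liver, at 38.6, Cyp2a5 at 34.5 and Cyp2j13 at 29.6 CPM per kb. Cyp2d26 had 12.8 and Cyp2j6 7.94 CPM per kb, with Cyp2d12 between them. Lower still were the arachidonic acid epoxygenase Cyp2c23 at 4.28, Cyp2d22 at 3.40, the epithelial enzyme Cyp2s1 at 2.84 and Cyp2j9, which hydroxylates arachidonic acid, at 2.76 CPM per kb. The spread of these levels over mice is unknown, so the order of neighbours such as Cyp2j11 and Cyp2d9 was not tested.

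**Figure D2:**
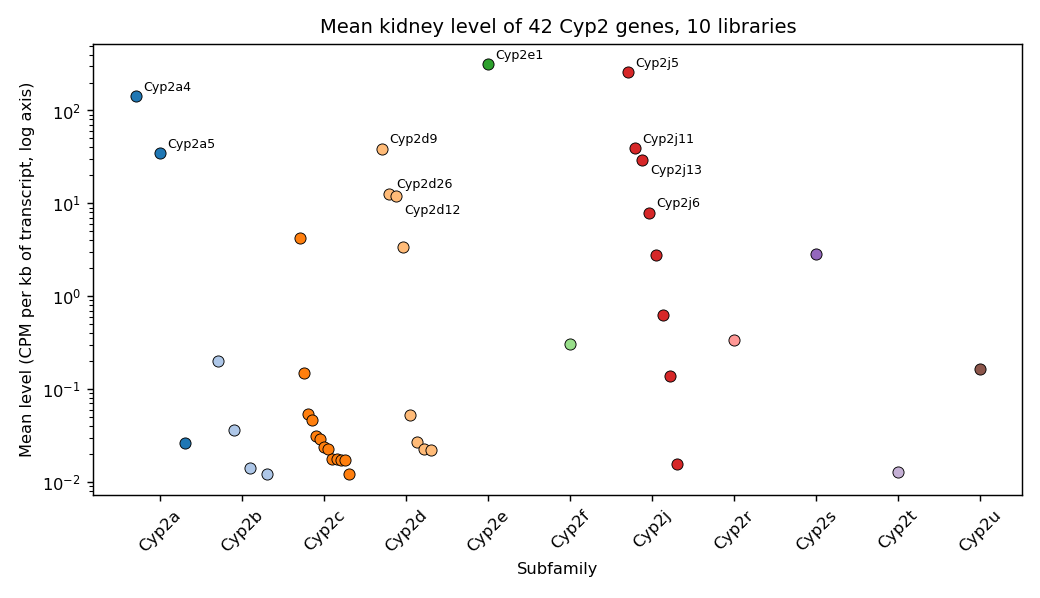
Mean level of 42 Cyp2 genes by subfamily (CPM per kb of transcript, log axis), 1 point per gene, mean over 10 libraries. Names are given at 10 CPM or more. Cyp2e1, Cyp2j5 and Cyp2a4 stand above 100 CPM per kb, and most Cyp2b and Cyp2c genes lie below 0.1.

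Levels ranged widely within the gene clusters. The Cyp2j cluster on chromosome 4 (96027534 to 96664154, 8 genes) ranged from Cyp2j5 at 257 down to Cyp2j12 at 0.0155 CPM per kb. Cyp2j7 (0.635) and Cyp2j8 (0.139) lay between them. The 12 genes of the Cyp2c cluster on chromosome 19 (39007019 to 40187333) were all under 1 CPM, and the highest of them per length was Cyp2c69 at 0.147 CPM per kb. Cyp2c23, which lies outside that cluster (chromosome 19, 44005022 to 44029208), was the 1 Cyp2c gene above 1 CPM. The Cyp2d cluster on chromosome 15 (82370527 to 82794294, 8 genes) held 4 genes above 1 CPM and 4 under 0.1 CPM. Of the 4 Cyp2b genes, Cyp2b10, a target of the xenobiotic receptor Nr1i3, was highest at 0.202 CPM per kb. Among the scarcer members that are alone in their subfamily, the vitamin D 25-hydroxylase Cyp2r1 had 0.336, Cyp2f2, known from airway club cells, 0.304, and the fatty acid hydroxylase Cyp2u1 0.165 CPM per kb.

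RefSeq start windows (GRCm38.p6, 250 bases before to 50 after the start) were matched for 35 of the 42 members. The windows of Cyp2a4 and Cyp2a5 were 97.7% identical, although their levels were 142 and 34.5 CPM per kb. The 250 bases before the start are shown for this pair and for Cyp2e1, the most abundant member, all on the plus strand. They lie at chr7:26306942-26307191 for Cyp2a4, chr7:26835089-26835338 for Cyp2a5 and chr7:140763569-140763818 for Cyp2e1. Capitals mark TATAAA, the TATA box, and GTTAAT, part of the site of the HNF1 factors.
Cyp2a4: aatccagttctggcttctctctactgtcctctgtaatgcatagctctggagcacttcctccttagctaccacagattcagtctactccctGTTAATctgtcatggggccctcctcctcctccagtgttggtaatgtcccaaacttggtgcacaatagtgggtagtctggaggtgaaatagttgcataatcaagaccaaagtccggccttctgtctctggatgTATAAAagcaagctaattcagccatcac
Cyp2a5: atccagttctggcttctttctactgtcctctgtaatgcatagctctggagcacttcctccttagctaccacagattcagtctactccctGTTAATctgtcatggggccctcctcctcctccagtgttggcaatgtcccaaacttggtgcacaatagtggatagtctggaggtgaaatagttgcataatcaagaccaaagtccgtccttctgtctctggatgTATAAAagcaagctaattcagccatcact
Cyp2e1: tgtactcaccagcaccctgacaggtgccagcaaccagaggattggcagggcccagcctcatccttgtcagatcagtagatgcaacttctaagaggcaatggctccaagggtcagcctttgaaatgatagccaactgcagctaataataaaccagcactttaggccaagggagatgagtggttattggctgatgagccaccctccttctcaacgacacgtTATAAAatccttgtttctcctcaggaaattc
TATAAA began 28 bases before the start of Cyp2a4, 29 before that of Cyp2a5 and 31 before that of Cyp2e1. On either strand it occurred in 18 of the 35 member windows, against 14.2% of 27025 windows of all genes. GTTAAT occurred in 6 of 35 (7.20% of all windows), and AGGTCA, the core site of many nuclear receptors, in 11 of 35 (16.0%). The repeat AGGTCANAGGTCA, which contains AGGTCA, occurred in 0 of 35 (0.044%). Among the 11 matched members of at least 1 CPM, 6 windows held TATAAA, as did 12 of the 24 others. Windows of close copies are not independent, since those of Cyp2b9 and Cyp2b13 were 99.3% identical and those of Cyp2c68 and Cyp2c69 91.1%. Some matches lay where no TATA box is placed. TATAAA began after the start of Cyp2c40 and Cyp2c69 and 162 bases before that of Cyp2c65. AGGTCA lay after the start in Cyp2a4, Cyp2a5 and Cyp2d40. These matches describe letters and show no binding.

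Of the 42 members, 0 passed the authors' edgeR likelihood-ratio test at an adjusted p under 0.05. Over all transcripts of the table that test called 0.0141%, and by the transcript of highest level it called 0.0273% of protein-coding genes. At an unadjusted p under 0.05 the table held 5 members, 4 positive and 1 negative, against 5.26% of protein-coding genes (4.14% positive and 1.12% negative). All 5 were among the 21 members under 0.1 CPM, where 6.45% of coding genes of that level had such a p (5.05% positive and 1.4% negative). The shares at that level are lowered by genes listed at a fold change of exactly 0. These were 742 of the 3149 coding genes, and 1 of the 21 members. Among the 14 members of at least 1 CPM the count at an unadjusted p under 0.05 was 0, where 4.07% of coding genes of that level had one (3.18% positive and 0.887% negative).

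The most abundant kidney enzymes had fold changes near 0 with wide intervals. At 603 CPM, Cyp2j5 was listed in the authors' deposited table with a log2 fold change of 0.06 (95% interval -0.40 to 0.53). The interval covers ratios from 0.756 to 1.44, and differences of that size are not excluded with 5 mice a group. It is not a limit of detection. For Cyp2e1 the authors' deposited table gave 0.15 (-0.50 to 0.80) at 573 CPM, and for Cyp2a4 0.12 (-0.47 to 0.70) at 247 CPM. For these 3 genes the authors' deposited table held adjusted p values between 0.959 and 1.

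The other members of at least 1 CPM from the Cyp2a and Cyp2d subfamilies, which hold steroid and drug hydroxylases, all had intervals that included 0. Cyp2a5 (69.5 CPM) was listed at 0.31 (-0.44 to 1.07) and Cyp2d9 (66.0 CPM) at 0.09 (-0.43 to 0.62) in the authors' deposited table. For Cyp2d26 the authors' deposited table gave 0.31 (-0.19 to 0.82) at 21.7 CPM. Cyp2d12 had the widest interval of the 14, from -1.09 to 0.97 around a log2 fold change of -0.06 (mean level 19.9 CPM), in the authors' deposited table. Cyp2d22 stood at 0.25 (-0.01 to 0.51, p = 0.0612, adjusted p 0.794) with a mean of 9.42 CPM in the authors' deposited table.

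Among the Cyp2j genes, Cyp2j6 (28.6 CPM) had the smallest p of the 14, 0.0530. Its entry in the authors' deposited table was 0.20 (-0.00 to 0.40) on the log2 scale, adjusted to a p of 0.794. Cyp2j13 was at 0.02 (-0.51 to 0.56, 129.5 CPM), Cyp2j11 at -0.01 (-0.50 to 0.47, 75.3 CPM) and Cyp2j9 at 0.16 (-0.15 to 0.47, 5.62 CPM) in the authors' deposited table. The epoxygenase Cyp2c23 (8.20 CPM) stood at -0.04 (-0.52 to 0.44) and Cyp2s1 (8.98 CPM) at 0.10 (-0.15 to 0.35) in the authors' deposited table. The intervals of all 14 genes included 0, and those of 12 lay wholly between -1 and 1.

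**Figure D3:**
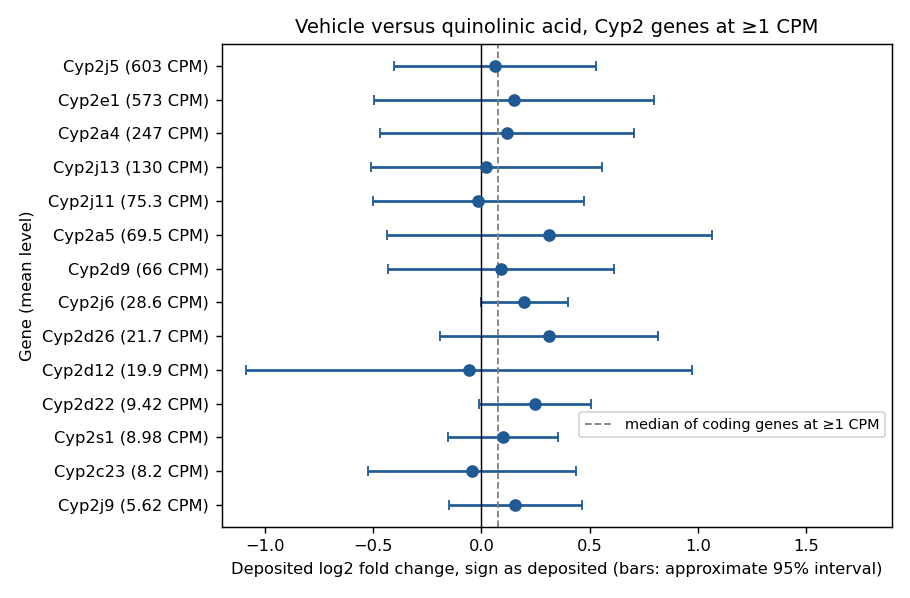
Deposited log2 fold change (horizontal axis, sign as deposited) with approximate 95% intervals for the 14 Cyp2 genes of at least 1 CPM, ordered by mean level. The dashed line is the median of coding genes of at least 1 CPM, and every interval includes 0.

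Over these 14 genes 11 signs were positive and 3 negative, with a median log2 fold change of 0.11. Coding genes of at least 1 CPM had a median of 0.08, and 71.8% of them had a positive sign, against 78.6% (11 of 14) here. The fold change in the table falls with transcript length (Spearman's rho -0.53 across 12632 coding genes of at least 1 CPM, a description across genes, which are not independent). Once that trend and the one on level were taken out, the median of the 14 was 0.01. That of coding genes of at least 1 CPM was then -0.01. With these trends removed, Cyp2j5, Cyp2a4 and Cyp2d9 changed sign, to -0.04, -0.02 and -0.05.

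The abundant members had large errors for their level. Of the 10 members of at least 10 CPM, 9 had an approximate SE above 0.226, the 95th percentile of 7394 genes of at least 10 CPM. Their median SE was 0.269, against 0.129 over those genes. The exception was Cyp2j6 with an SE of 0.10, while Cyp2d12 had the highest at 0.53. Among the 4 members of at least 100 CPM the median SE was 0.286, and over 640 genes of that level it was 0.174. In the proximal tubule list, 13 of 14 genes were above the 95th percentile, and the median SE was 0.296. Of the 6 Cyp4 genes of at least 10 CPM, 5 were above that percentile, with a median SE of 0.335. Of the P450 redox partners, 2 of 7 were above it, with a median of 0.139. The part of cell composition or of single libraries in these errors was not tested.

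**Figure D4:**
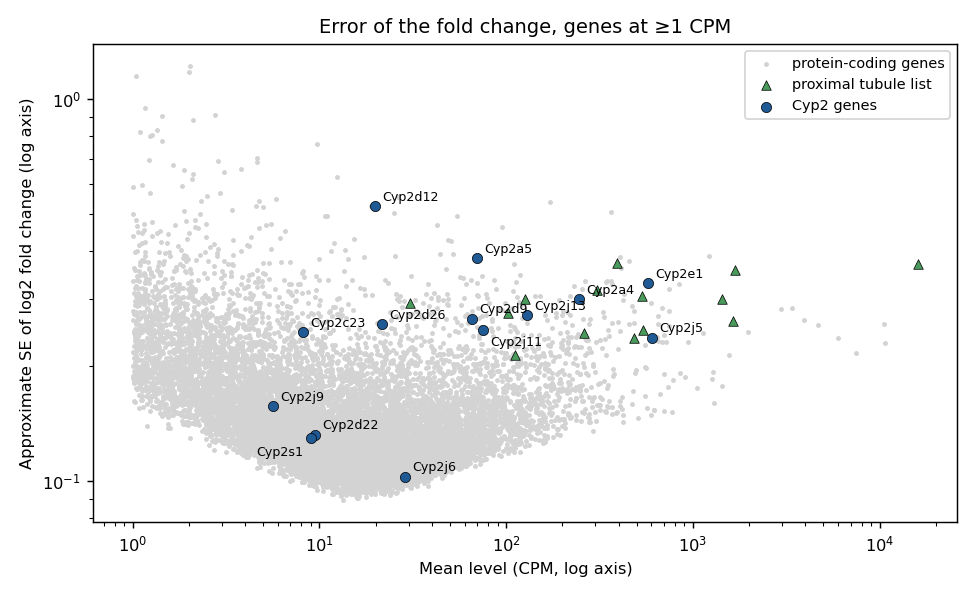
Approximate SE of the deposited log2 fold change against mean level (CPM), both on log axes, for protein-coding genes of at least 1 CPM (grey), 14 Cyp2 genes (blue circles) and a proximal tubule list (green triangles). All named Cyp2 genes from Cyp2j5 to Cyp2d12 except Cyp2j6 lie above an SE of 0.226.

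Larger fold changes appeared only among the scarce members. The 4 positive ones with an unadjusted p under 0.05 were all genes of the Cyp2c cluster known from liver. Cyp2c50, at 0.0519 CPM, was listed in the authors' deposited table with a log2 fold change of 2.89 (95% interval 0.83 to 4.96), p = 0.00605 and adjusted p 0.665. Cyp2c29, an arachidonic acid oxidising enzyme of mouse liver, stood there at 2.39 (0.57 to 4.21, p = 0.0102, adjusted p 0.710), with 0.0959 CPM by the authors' deposited table. Cyp2c37 (0.0323 CPM) stood at 1.96 (0.28 to 3.65) and Cyp2c54 (0.0304 CPM) at 3.00 (0.18 to 5.81) in the authors' deposited table. Their p values there were 0.0223 and 0.0371, and neither passed adjustment (0.788 and 0.794).

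Cyp2c37, Cyp2c50 and Cyp2c54 had whole coding sequences 95.1% to 96.1% identical, so they may share reads and are not independent measurements, although the stretch printed above is where they differ most. Of the 50-base stretches of Cyp2c50, 69.3% were its own, while Cyp2c29 reached 97.9%. Cyp2b9, known as a female-biased liver enzyme, was the 1 negative gene at an unadjusted p under 0.05. It was listed at -2.88 (-5.35 to -0.41) on the log2 scale in the authors' deposited table, with 0.0226 CPM and adjusted p 0.788. Its closest relative Cyp2b13, with a coding sequence 92.8% identical, had -1.05 (-3.32 to 1.23) with a mean of 0.0265 CPM in the authors' deposited table. Both lay near the lowest value listed for any transcript, 0.0201 CPM, where these approximate intervals are least certain. Of the 50-base stretches of Cyp2b9, 10.8% also occurred in Cyp2b13, so the pair may share reads and is not independent.

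The next smallest p among scarce members belonged to Cyp2c68 (0.79, -0.02 to 1.60), Cyp2d40 (2.58, -0.09 to 5.26) and Cyp2c70 (2.04, -0.20 to 4.29) in the authors' deposited table. Cyp2c70 makes the muricholic bile acids of mice in the liver, and all its 50-base stretches were its own. A log2 fold change of 2 or more was listed for 5 of the 21 members under 0.1 CPM, and for 8.03% of 3149 coding genes of that level. One of -2 or less was listed for 1 member and for 4.16% of those genes. A fold change of exactly 0 was listed for 742 of the 3149 genes and for 1 of the 21 members. Genes listed at 0 cannot reach either cut and lower the shares of 8.03% and 4.16%. Over the 12 genes of the Cyp2c cluster the median was 0.64, with 11 positive signs and 1 negative, that of Cyp2c65. All 12 lay under 1 CPM, where 52.4% of 5664 coding genes were positive and 746 were listed at 0. Several of the 12 are close copies that may share reads, so their signs are not independent.

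Liver marker genes also had positive signs. In a hepatocyte list 16 of 16 genes were positive, against 65.8% of all protein-coding genes. Their median on the log2 scale was 0.63, and their mean levels summed to 155 CPM. Whether the kidney itself makes part of that RNA was not tested. By the authors' likelihood-ratio test 0 of the 16 were called, and 10 had an unadjusted p under 0.05, against 5.26% of protein-coding genes. In the authors' deposited table the fibrinogen chain Fgb stood at 1.05 (3.37 CPM), hemopexin (Hpx) at 1.63 (0.388 CPM), transferrin (Trf) at 0.54 (20.8 CPM) and albumin (Alb) at 1.27 (6.53 CPM). Others of the list were nearer 0 there, with the fibrinogen chains Fga at 0.21 and Fgg at 0.14, and Apoc3 and Apoh at 0.12. Of the 16, 10 were at 1 CPM or more, and the lowest was the liver enzyme Tat at 0.0607 CPM. Of 12 adipocyte genes 10 were positive and 2 negative, with a median of 2.43. At an unadjusted p under 0.05 there were 8, all positive, against 4.14% of protein-coding genes with such a p and sign. Adipoq was listed at 4.55, Cfd at 3.77 and Plin1 at 4.61 on the log2 scale in the authors' deposited table, and none of the 12 was called. The part of either tissue in the Cyp2c values was not tested.

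**Figure D5:**
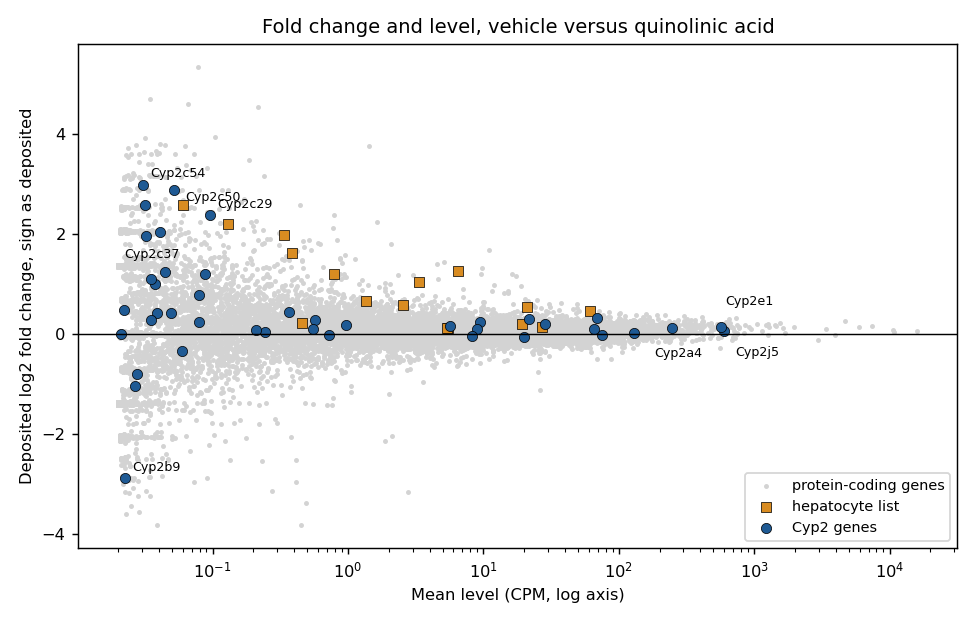
Deposited log2 fold change (sign as deposited) against mean level (CPM, log axis) for protein-coding genes (grey), 42 Cyp2 genes (blue circles) and a hepatocyte list (orange squares). Abundant Cyp2 genes such as Cyp2j5, Cyp2e1 and Cyp2a4 sit near 0, while Cyp2c50, Cyp2c54 and Cyp2c29 lie above 2 and Cyp2b9 below -2, all under 0.1 CPM.

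Other tissues that carry Cyp2 enzymes gave mixed values. The airway club cell list, whose tissue is 1 known site of Cyp2f2, had 5 measured genes, 2 positive and 3 negative. Of them 1 was called, against 0.0273% of protein-coding genes. It was Scgb1a1, a secreted club cell protein, at -2.95 (mean level 0.0723 CPM, adjusted p 0.0217) by the edgeR test of the authors' deposited table. Scgb3a1 stood at -2.23, Scgb3a2 at -2.14, Sftpb at 2.04 and Sftpd at 0.23 in the authors' deposited table. Cyp2f2 itself (0.567 CPM) stood at 0.29 (-0.38 to 0.95) on the log2 scale in the authors' deposited table. The 7 measured genes of the adrenal cortex summed to 1.08 CPM, with 4 positive signs, 1 negative and 2 at 0. Their smallest p values belonged to Mc2r (1.49), Cyp21a1 (1.16) and Cyp11a1 (-0.17), and Cyp11a1, which starts steroid synthesis, was listed with a mean of 0.0565 CPM in the authors' deposited table. Of 8 urothelial genes 7 were positive, with a median of 0.60, led by Psca (1.08), Upk1a (0.50) and Upk1b (0.87) in the authors' deposited table. The 8 blood cell genes had a median of 0.16, and their smallest p values belonged to Cd3e (0.54), Hba-a1 (0.33) and Hbb-bs (0.17) in the authors' deposited table. The 14 genes of the proximal tubule, where several kidney P450 enzymes are known to lie, had a median of 0.09, 11 positive and 3 negative signs and none at an unadjusted p under 0.05. They were led by the glucose transporter Slc5a2 (0.30), the inositol oxygenase Miox (0.19) and the phosphate transporter Slc34a1 (0.18) in the authors' deposited table.

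Between 0.1 and 1 CPM lay 7 members, of which 0 had an unadjusted p under 0.05, a number too small to set against the 9.78% of 2515 coding genes of that level that had one (7.83% positive and 1.95% negative). Cyp2b10 had the largest log2 fold change of these genes, 0.44 (-0.39 to 1.26), and Cyp2u1 the lowest, -0.01 (-0.42 to 0.40), in the authors' deposited table. Cyp2r1 stood at 0.11 (-0.31 to 0.53), with Cyp2j7, Cyp2j8 and Cyp2c69 between 0.04 and 0.18, in the authors' deposited table. Under 0.1 CPM, the members not yet described ranged from -0.79 for Cyp2j12 to 1.24 for Cyp2a12, with p values from 0.0762 to 1, in the authors' deposited table. They were Cyp2a12, Cyp2b23, Cyp2c38, Cyp2c40, Cyp2c55, Cyp2c65, Cyp2c67, Cyp2d10, Cyp2d11, Cyp2d34, Cyp2j12 and Cyp2t4. Cyp2t4 was listed at 0, mean level 0.0211 CPM.

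Transcripts of a gene share exons and reads, and most had similar values. The table held 74 transcripts of the 42 genes, and 13 genes had more than 1. The 4 transcripts of Cyp2j13 lay between 0.02 and 0.05, and the 5 of Cyp2a5 between 0.27 and 0.37 on the log2 scale in the authors' deposited table. The 6 of Cyp2r1 ranged from 0.01 to 0.15, none with an interval that left out 0, in the authors' deposited table. Cyp2s1 was the 1 abundant gene with both signs. Its coding transcript of highest level stood at 0.10, while a transcript that retains an intron was at -0.18 with 14.4% of its level, in the authors' deposited table. A protein-coding transcript with 5.65% of that highest level was also negative there, at -0.20. For Cyp2c29 the authors' deposited table listed 2.39 for 2 transcripts and 2.31 for the third.

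Genes that work with the Cyp2 enzymes were described from gene lists, and no member of these lists passed the authors' likelihood-ratio test. The 7 redox partners had 6 positive signs and 1 negative, a median of 0.13 on the log2 scale and none at an unadjusted p under 0.05. Por, the electron donor of all these enzymes, stood at 0.16 (-0.32 to 0.65) with a mean of 115 CPM in the authors' deposited table. Pgrmc2 (0.13), the cytochrome b5 reductase Cyb5r1 (0.12) and the heme-binding Pgrmc1 (0.15) had the smallest p of the list in the authors' deposited table. The 12 genes of heme synthesis and breakdown had 11 positive signs and a median of 0.14. Of them 1 (8.33%) had an unadjusted p under 0.05, against 5.26% of protein-coding genes. It was Alad, which makes porphobilinogen, at 0.29 (0.01 to 0.56), followed by the biliverdin reductase Blvrb (0.25) and Ppox (0.17), in the authors' deposited table. The transcripts of Alad and Ppox behind these values are annotated as not coding.

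The arachidonic acid list, which holds the epoxide hydrolases that consume Cyp2 products and the cyclooxygenase and lipoxygenase branches, had 12 positive signs among 13 genes and a median of 0.19. Of these 3 had an unadjusted p under 0.05, all positive, against 4.14% of protein-coding genes with such a p and sign. Ephx1, the microsomal epoxide hydrolase, stood at 0.34 (0.09 to 0.60, p = 0.00795, adjusted p 0.688) with 25.1 CPM in the authors' deposited table. The cyclooxygenase Ptgs1 stood at 0.34 (0.05 to 0.63) and the prostacyclin synthase Ptgis at 0.42 (0.02 to 0.83) in the authors' deposited table. Of 20 transcriptional regulators 11 were positive and 9 negative, with a median of 0.05. Cebpb, a liver and stress regulator, had 0.65 (0.08 to 1.22, p = 0.0246), and the clock-driven Dbp 0.31 (-0.06 to 0.68), in the authors' deposited table. The xenobiotic receptors had opposite signs, with Nr1i2 (PXR) at 0.34 (-0.02 to 0.70, 3.09 CPM) and Nr1i3 (CAR) at -0.16 (-0.67 to 0.34, 0.438 CPM) in the authors' deposited table.

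The 4 other vitamin D genes had 2 positive and 2 negative signs. The second 25-hydroxylase Cyp27a1 stood at 0.32 (0.08 to 0.55, p = 0.00872, adjusted p 0.698) with a mean of 19.9 CPM in the authors' deposited table. The activating enzyme Cyp27b1 had a log2 fold change of 0.42 (-0.06 to 0.89) and the inactivating enzyme Cyp24a1 one of -0.30 (-0.89 to 0.29) in the authors' deposited table. The 12 other oxidation enzymes had a median of 0.06, with none at an unadjusted p under 0.05, and Aox1 (0.53), Adh5 (0.21) and Aox3 (0.23) had the smallest p in the authors' deposited table.

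Beside the other P450 families, the Cyp2 genes had a median log2 fold change of 0.22 over all 42 members and 33 positive signs (78.6%), 8 negative and 1 at 0. With the trend on transcript length and level taken out, 64.3% of the 42 were positive. Their median was then 0.12, and that of all protein-coding genes -0.01. The 20 Cyp4 genes, fatty acid hydroxylases, had a median of 0.06 with 11 positive signs, 8 negative and 1 at 0, and 1 at an unadjusted p under 0.05. The 5 Cyp3 genes were all under 1 CPM, with a median of 0.45 and 2 at an unadjusted p under 0.05, and the 3 Cyp1 genes had a median of 0.07. The 18 genes of other Cyp families had a median of 0.14, with 11 positive signs, 5 negative and 2 at 0. Of these 18, 4 (22.2%) had an unadjusted p under 0.05, all positive, against 5 of 42 (11.9%) in the Cyp2 family. The share over all protein-coding genes was 5.26%. All 5 of the Cyp2 genes but 1 of the 4 others lay under 0.1 CPM, so these shares are not at like levels. Before trend removal, all protein-coding genes together had a median of 0.07 and 65.8% positive signs. These differences between families were not tested, since genes are not replicates of a condition.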

How the data were processed

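Whole-kidney RNA of 10 mice was sequenced, 5 given vehicle and 5 quinolinic acid by their titles. FastQC 0.11.2, STAR 2.5.3a, Subread 1.4.6 with featureCounts, and edgeR are named in the submitters' processing notes, as is build mm10. Sources used here do not give the annotation release, filters, strand setting, read length or library depths. The authors deposited 1 table, whose header names a log2 fold change, mean log2 CPM, likelihood ratio (a score on 1 degree of freedom), p-value and adjusted p per transcript. A test on values of each library had been planned. The table is a finished comparison, so the authors' test took its place, with calls at an adjusted p under 0.05.

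Of 85107 transcripts, 98.0% matched GENCODE vM21 by identifier, versions dropped. The size of the log2 fold change over the root of the likelihood ratio served as SE, and intervals span 1.96 SE each way. Coding sequences were aligned end to end, with identity as matches over alignment length. Trends on transcript length and level were removed with loess (span 0.5, degree 2, R 4.3.3) over 27876 genes, after the script had been tested on simulated data. Python 3.11.15, numpy 2.4.6, pandas 2.3.3, scipy 1.17.1 and matplotlib 3.10.9 were used. Alternatives were other p thresholds and adjustments, level filters, other choices of transcript, trend removal and leaving out members with close copies.

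Members and lists were chosen with earlier results of these data known. Named were all members of at least 1 CPM, the 8 scarcer ones with the smallest p, up to 3 genes per list by smallest p, and Por, Nr1i2, Nr1i3 and Alb. Other genes named, such as Cyp2b13 or Tat, were picked after their values were seen.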

Additional observations from a re-analysis of the deposited data

How the results depend on the processing

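No member was called with a deposited adjusted p under 0.1, with Benjamini-Hochberg adjustment over 1 transcript per gene (lowest adjusted p of a member 0.688), over genes of at least 1 CPM (0.918) or after removal of the loess trend (0.812). The count was 5 at an unadjusted p under 0.05. All 5 lay under 0.1 CPM. The adjustment over genes of at least 1 CPM covered only the 14 members of that level, so it could not call them. The median log2 fold change of the family, 0.22 in all members, lay between 0.11 and 0.22 under the 6 alternatives, 1 of them chosen after seeing the data, and the share of positive signs between 64.3% and 81.0%. Of 22 named members, 3 changed sign with the trend removed, namely Cyp2j5 (-0.0376), Cyp2a4 (-0.0215) and Cyp2d9 (-0.0501), and Cyp2s1 did so as a mean over its transcripts (-0.0431). None of these 4 had been called. All 22 already stood by a protein-coding transcript, so choosing that transcript could not change their sign and tells nothing of robustness. No paired analysis was possible because the deposited values are a finished comparison without values per library, and for the same reason no mouse could be left out. Identity of proteins was not used here, and coding sequences took its place. Depth per library is unknown, so the precision of members under 0.1 CPM cannot be given beyond their intervals.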
